A study of Mus musculus with 13 samples.

Results

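The genes described here are the machinery of lytic cell death: Gsdmd, Mlkl, Ripk3, Casp8, Casp1, Casp4, Nlrp3, Pycard, Il1b and Il18. They form a named list that was matched by mouse symbol, and all 10 were found among the 53379 genes of the count table. RNA was sequenced in bulk from CD45- thymic stroma cells of wild type C57BL/6 mice aged 2 months, at steady state (4 libraries, labelled untreated and given PBS) and at day 1, day 4 and day 7 after sublethal total body irradiation (TBI, 3 libraries each). No transgene or deletion was part of any group, and nothing in the labels says how many mice went into a library, so p-values measure the spread between these libraries.

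Pyroptosis and necroptosis are 2 forms of cell death that end in a ruptured plasma membrane and the release of cell contents. In pyroptosis an inflammasome, built from a sensor such as NLRP3 and the adaptor ASC (encoded by Pycard), activates caspase-1. Caspase-1, or the lipopolysaccharide-responsive mouse caspase-11 (encoded by Casp4), then cleaves gasdermin D, whose N-terminal part forms membrane pores, and caspase-1 also matures the cytokines IL-1β and IL-18. In necroptosis the kinase RIPK3 phosphorylates the pseudokinase MLKL, which permeabilises the membrane, and caspase-8 holds this route in check. In the thymus, TBI kills most thymocytes within days while much of the radioresistant stroma remains. The RNA levels measured here do not report cleavage, phosphorylation or death itself.

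Total counts ran from 15721866 to 52056896 per library, and no pair of libraries agreed within sampling noise (lowest chi-square per degree of freedom 42.5). Day 1 replicate 1 stood apart in these genes, being the highest of the day 1 libraries for 9 of 10 members and the highest of all 13 libraries for 7. It was also the only day 1 library with its kind of tag in the column name, whose meaning was not given in the sources used here. Without it the day 1 log2 fold changes against steady state were 0.52 for Gsdmd, 1.05 for Ripk3, 0.25 for Casp8, 0.16 for Casp1, 0.49 for Pycard, -0.24 for Nlrp3 and -0.54 for Il18, none past the threshold, and those of Mlkl, Casp4 and Il1b stand with their results below. The labelled cell type held by its markers: the summed CPM (counts scaled to the effective library size) of fibroblast markers was 8242 to 43948 over the libraries at steady state, that of TEC (thymic epithelial cell) markers 716 to 2682 and that of EC (endothelial cell) markers 442 to 781. Blood cell RNA was present as well, with thymocyte marker sums of 231 to 744 at steady state, 110 to 143 at day 1, 20.9 to 35.1 at day 4 and 205 to 4780 at day 7. In bulk libraries, fewer cells of a type and less RNA per cell cannot be told apart.

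The sequences shown first are the promoters of the 3 members that rose at day 1, with 2 promoters of GTPase genes that rose beside them. RefSeq promoter sequences (GRCm38.p6) were matched for 9 of the 10 members, with no entry for Gsdmd, and each is given as the 250 bases before the RefSeq start on the gene's own strand. They were searched on both strands for the core of the interferon-stimulated response element (ISRE core, GAAA followed by any 2 bases and GAAA again, bound by interferon regulatory factors) and an NF-kB motif (GGGA, any 2 bases and TTCC). A match may overlap another.

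Mlkl, chr8:111338206-111338455, minus strand: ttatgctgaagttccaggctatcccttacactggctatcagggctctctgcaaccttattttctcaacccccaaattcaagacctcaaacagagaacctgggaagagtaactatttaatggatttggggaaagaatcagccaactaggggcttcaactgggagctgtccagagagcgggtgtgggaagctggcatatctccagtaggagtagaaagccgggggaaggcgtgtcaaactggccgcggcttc
Casp4, chr9:5308599-5308848, plus strand: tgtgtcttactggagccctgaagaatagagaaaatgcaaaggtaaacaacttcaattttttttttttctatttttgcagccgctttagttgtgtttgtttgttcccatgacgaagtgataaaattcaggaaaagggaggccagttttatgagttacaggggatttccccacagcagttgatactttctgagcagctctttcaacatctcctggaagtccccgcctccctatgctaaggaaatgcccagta
Il1b, chr2:129371140-129371389, minus strand: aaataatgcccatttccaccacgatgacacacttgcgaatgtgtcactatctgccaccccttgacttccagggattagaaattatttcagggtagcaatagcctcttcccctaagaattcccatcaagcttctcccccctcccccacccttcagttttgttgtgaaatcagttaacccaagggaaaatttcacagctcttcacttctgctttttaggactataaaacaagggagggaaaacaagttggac
Irgb10, chr11:58183593-58183842, plus strand: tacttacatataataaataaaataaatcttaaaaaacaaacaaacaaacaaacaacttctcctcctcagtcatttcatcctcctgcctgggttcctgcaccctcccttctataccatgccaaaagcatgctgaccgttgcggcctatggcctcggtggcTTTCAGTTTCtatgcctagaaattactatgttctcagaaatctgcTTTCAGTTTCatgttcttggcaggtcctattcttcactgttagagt
Irgm2, chr11:58214727-58214976, plus strand: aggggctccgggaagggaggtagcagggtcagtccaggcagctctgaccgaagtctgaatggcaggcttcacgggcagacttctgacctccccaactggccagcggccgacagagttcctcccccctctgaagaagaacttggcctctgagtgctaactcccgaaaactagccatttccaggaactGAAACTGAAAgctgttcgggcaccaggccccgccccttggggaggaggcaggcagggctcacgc

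Capitals mark the matches, which are 2 ISRE cores in Irgb10 and 1 in Irgm2. No promoter of the 9 members held either of these exact strings within this window, including those of Mlkl, Casp4 and Il1b. Casp4 and Nlrp3 had 2 start sites each, both searched, and start site 1 of Casp4 is shown. Looser forms of the 2 motifs were not searched, so a related site, in Casp4 or elsewhere, could go unmarked. All 7 GTPase genes held an ISRE core in at least 1 promoter, though the promoter of start site 2 of Gbp3 held none. Of all 32851 promoters of this length, counted singly and not per gene, 2.98% held this core. Of the other pathway genes that rose at day 1, described below, neither Il18bp nor Tlr3 held an ISRE core, and Zbp1 had no promoter entry. Tlr3 held the NF-kB motif and Il18bp neither motif. Among the GTPases the NF-kB motif was found in 1 of 7 genes (Gbp5), and in 1.21% of all promoters, again counted singly. A match is a run of letters and not a bound site, and a window without one says nothing about the factor.

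At day 1 after TBI, 3 of the 10 lytic death genes were above steady state in edgeR's quasi-likelihood test, adjusted after Benjamini and Hochberg over 19984 genes, and none was below. Over all genes tested, 2.35% were called in either direction and 1.68% as higher. The 3 genes were Mlkl, Casp4 and Il1b, one from each of necroptosis, the noncanonical inflammasome and the released cytokines. The members' median log2 fold change was 0.79, beside -0.10 over all genes tested. In 7 of 10 members the 3 day 1 libraries lay entirely above the 4 steady-state libraries, where the libraries failed to overlap for 15.8% of all genes and in the upward direction for 7.25%. Without day 1 replicate 1, PBS day 7 replicate 1 or PBS day 7 replicate 2 the count of 3 became 1, which was Mlkl each time. The library-by-library plot shows these levels for each gene.

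**Figure D1:**
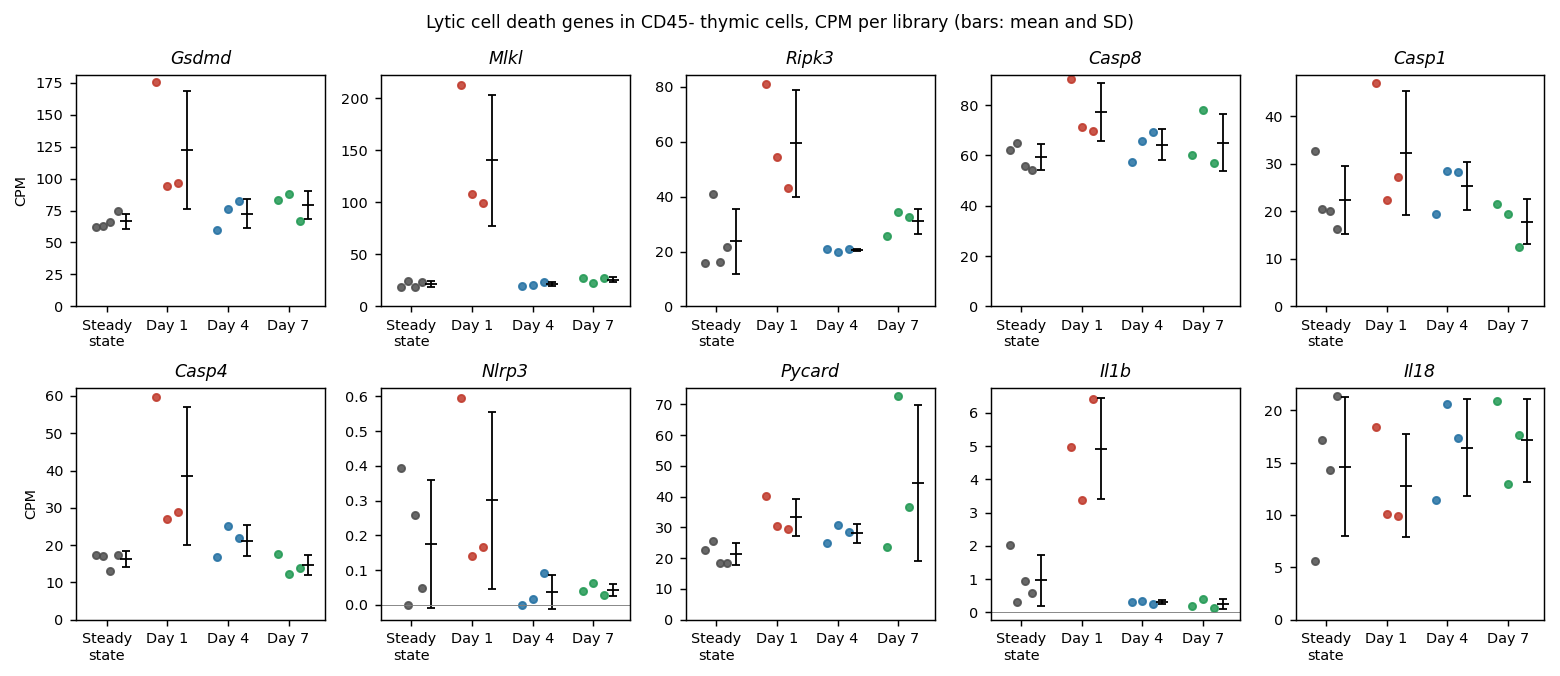
CPM of the 10 lytic death genes in each of the 13 libraries (points) at steady state and at day 1, day 4 and day 7 after TBI, with a linear y axis scaled per gene and the group mean with its SD as a bar. The 3 day 1 libraries of Mlkl sit between 99.2 and 213 CPM, above every other library, while those of Il18 overlap the rest.

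Of the pore-forming executioners, Mlkl changed most. Mlkl (ENSMUSG00000012519, chr8:111311797-111338177) encodes the membrane-permeabilising end point of necroptosis. Its levels were 18.5, 24.7, 18.8 and 23.9 CPM in the steady-state libraries and 213, 108 and 99.2 CPM at day 1. It then measured 19.9, 21.0 and 23.2 CPM at day 4 and 26.9, 22.7 and 27.2 CPM at day 7. The day 1 libraries thus stood clear of all 10 others, and the day 4 and day 7 libraries lay in or next to the steady-state range. From 21.5 ± 3.25 (SD, n = 4) to 140 ± 63.3 CPM (SD, n = 3) the rise at day 1 was 6.53-fold (log2 fold change 2.71, SE 0.512, edgeR adjusted p = 0.000123). Without day 1 replicate 1 it was 2.28 on the log2 scale and still past the threshold.

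Gsdmd (ENSMUSG00000022575, chr15:75862339-75867404) encodes the pyroptotic pore protein. It measured 62.5, 62.8, 66.0 and 75.0 CPM at steady state and 176, 94.3 and 96.6 CPM at day 1. Levels were 59.8 to 82.2 CPM at day 4 and 66.8 to 87.8 CPM at day 7, overlapping steady state at both times. The day 1 libraries did not overlap those at steady state, but the log2 fold change of 0.88 (SE 0.289) did not pass edgeR's test (adjusted p = 0.0748). The 95% interval of the difference was 0.31 to 1.44 on the log2 scale before adjustment. Over 13 alternatives the adjusted p ran from 0.0112 (DESeq2) to 0.2945 (without day 1 replicate 1, where the log2 fold change was 0.52), and 2 of 13 passed.

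Among the inflammatory caspases, Casp4 (ENSMUSG00000033538, chr9:5308828-5336783) was the one that rose. Casp4 measured 17.5, 17.2, 13.1 and 17.4 CPM at steady state, 59.8, 27.0 and 28.8 CPM at day 1, 16.7, 25.1 and 21.8 CPM at day 4 and 17.5, 12.3 and 14.0 CPM at day 7. All 3 day 1 libraries were above every other library, 1 of them by a wide margin. The mean went from 16.3 ± 2.12 (SD, n = 4) to 38.6 ± 18.4 CPM (SD, n = 3), a log2 fold change of 1.24 (SE 0.371, edgeR adjusted p = 0.0389). The call was lost without day 1 replicate 1 (log2 fold change 0.78, adjusted p = 0.182), PBS day 1 replicate 2 (adjusted p = 0.0651), PBS day 7 replicate 1 (adjusted p = 0.1145) or PBS day 7 replicate 2 (adjusted p = 0.0946), and with only the 2 groups compared in the fit (adjusted p = 0.1146).

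Casp1 (ENSMUSG00000025888, chr9:5298517-5307265), the neighbouring gene and the protease of the canonical inflammasome, measured 32.7, 20.5, 20.1 and 16.4 CPM at steady state and 47.1, 22.4 and 27.3 CPM at day 1. These ranges overlap, and the difference did not pass the test (log2 fold change 0.53, SE 0.339, edgeR adjusted p = 0.423). Day 1 replicate 1 and the 1 steady-state library of its tag family gave a ratio of 2.88, and the 2 day 1 and 2 steady-state libraries without such a tag gave 0.943. The same ratios were 3.44 and 1.83 for Casp4 and 8.93 and 5.55 for Mlkl.

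Ripk3 (ENSMUSG00000022221, chr14:55784995-55788865), the kinase upstream of MLKL, measured 15.9, 41.0, 16.2 and 21.6 CPM at steady state and 81.1, 54.6 and 43.0 CPM at day 1. The lowest day 1 library was just above the highest steady-state library, PBS day 4 replicate 2, which was itself far above the others of its group. At day 4 Ripk3 was 19.95 to 20.9 CPM and at day 7 25.7 to 34.5 CPM. The day 1 log2 fold change of 1.33 (SE 0.413) fell just outside the threshold of edgeR's test (adjusted p = 0.0529). Without PBS day 4 replicate 2 it was 1.74 with an adjusted p of 0.00369, and over all 13 alternatives the adjusted p ran from 0.00369 to 0.228, with 6 of 13 past the threshold.

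Casp8 (ENSMUSG00000026029, chr1:58795374-58847503), the caspase that restrains necroptosis, had the narrowest range of levels over the 13 libraries among the 10 genes. Its 4 steady-state libraries measured 62.3, 64.9, 55.8 and 54.0 CPM and its day 1 libraries 90.3, 71.5 and 69.6 CPM. The groups did not overlap but the difference was small and did not pass edgeR's test (log2 fold change 0.38, SE 0.201, adjusted p = 0.312). The 95% interval ran from -0.01 to 0.77 on the log2 scale.

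Of the inflammasome platform, the adaptor was well above the floor of detection (3 counts) and the sensor was close to it. Nlrp3 (ENSMUSG00000032691, chr11:59541568-59566956) had 18, 0, 12 and 1 counts at steady state, 21, 3 and 8 at day 1, 0, 1 and 5 at day 4 and 2, 3 and 1 at day 7. In 8 of 13 libraries it was at or below 3 counts. The day 1 libraries were above those of day 4 and day 7 in CPM but not in counts. Day 1 replicate 2 had 3 counts (0.139 CPM) and day 4 replicate 3 had 5 (0.0926 CPM). Neither difference passed edgeR's test (adjusted p = 0.329 and 0.164). Pycard (ENSMUSG00000030793, chr7:127989708-127993867) measured 22.5, 25.7, 18.5 and 18.5 CPM at steady state, 40.2, 30.4 and 29.3 CPM at day 1 and 24.8, 30.7 and 28.6 CPM at day 4. The day 1 libraries lay above all 4 at steady state, with a log2 fold change of 0.64 that did not pass edgeR's test (SE 0.343, adjusted p = 0.316). Of Pycard's exonic length 12.8% overlaps another annotated gene, Gm45205.

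At day 7 Pycard spread widely, with 23.7, 72.6 and 36.5 CPM in replicates 1, 2 and 3. Replicate 2 was the highest library of the series for Pycard and replicate 1 lay inside the steady-state range. The difference from steady state was 1.05 on the log2 scale (SE 0.376) and did not pass edgeR's test (adjusted p = 0.144). Without day 7 replicate 1 it was 1.36 with an adjusted p of 0.0220 and without day 7 replicate 2 it was 0.54, and in DESeq2 its adjusted p was 0.0422. The thymocyte marker sum took the same order, with 205, 4780 and 2102 CPM in the 3 libraries, all 11 markers being above 0 in each. The macrophage and monocyte sum (137, 782 and 374 CPM) and the dendritic cell sum (0.882, 16.4 and 4.88 CPM) took this order too. So did the neutrophil and EC sums, while the TEC and fibroblast sums did not. The part of any of these cells in the Pycard values was not tested. Casp8 was also highest at day 7 in replicate 2 (60.3, 77.9 and 56.9 CPM).

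The cytokines differed from each other. Il1b (ENSMUSG00000027398, chr2:129364570-129371139) was near the lower end of measurement, with 93, 12, 44 and 12 counts at steady state (2.04, 0.300, 0.947 and 0.581 CPM) and 176, 73 and 306 counts at day 1 (4.98, 3.39 and 6.41 CPM). It fell to 5, 20 and 13 counts at day 4 and 9, 20 and 5 counts at day 7. The day 1 libraries were above all others, and the highest steady-state library, PBS day 1 replicate 2, came next. The rise from 0.967 ± 0.763 (SD, n = 4) to 4.93 ± 1.51 CPM (SD, n = 3) was 2.33 on the log2 scale (SE 0.714, edgeR adjusted p = 0.0480). This call depended on single libraries: the adjusted p was 0.107 without PBS day 7 replicate 1, 0.135 without PBS day 7 replicate 2, 0.134, 0.0727 and 0.132 without day 1 replicates 1, 2 and 3 (log2 fold change 2.33 without replicate 1), and 0.138 with only the 2 groups in the fit. Il1b shares 1.31% of its exonic length with the antisense gene Il1bos, and counting without strand cannot separate them.

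Il18 (ENSMUSG00000039217, chr9:50554827-50581840) showed no such rise. It measured 5.61, 17.2, 14.3 and 21.4 CPM at steady state, 18.4, 10.1 and 9.87 CPM at day 1, 11.4, 20.6 and 17.3 CPM at day 4 and 20.8, 12.9 and 17.7 CPM at day 7. All 4 groups overlapped. At day 1 the log2 fold change was -0.19 (SE 0.412, edgeR adjusted p = 0.849) with a 95% interval of -0.996 to 0.62.

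Neutrophil marker RNA moved with Il1b at day 1, while thymocyte and dendritic cell marker sums lay below those of steady state. The summed level of 9 neutrophil markers was 4.85 to 27.8 CPM at steady state, 22.8 to 46.0 CPM at day 1, 4.71 to 6.94 CPM at day 4 and 1.70 to 11.7 CPM at day 7, with up to 4 of 9 markers at 0 in a library. Csf3r, the G-CSF receptor, rose from 0.118 ± 0.112 (SD, n = 4) to 5.05 ± 0.770 CPM (SD, n = 3; edgeR adjusted p = 0.000707) and the chemokine receptor Cxcr2 from 0.0507 to 1.32 CPM (edgeR adjusted p = 0.0162), while 8 of the 9 markers could be tested and 2 rose. The macrophage and monocyte list summed to 102 to 341 CPM at steady state and 136 to 174 CPM at day 1, and 1 of its 9 genes (Fcgr1) rose. Its pan-leukocyte gene Ptprc was at 71.7 ± 47.6 (SD, n = 4) and 13.5 ± 1.27 CPM (SD, n = 3), which did not pass the test, and the 5 dendritic cell markers summed to 3.93 to 13.1 and 2.88 to 3.75 CPM (median log2 fold change -1.80, none called). PBS day 1 replicate 2 had the highest neutrophil and macrophage sums at steady state and the highest Il1b, Casp1 and Nlrp3 levels of that group. It also had the highest TEC sum (2682 CPM) and the lowest fibroblast sum (8242 CPM) of the group. Its dendritic cell and EC sums (13.1 and 781 CPM) were highest too, close to those of PBS day 7 replicate 1 (12.9 and 779 CPM). Of its macrophage sum of 341 CPM, 119 CPM were Ptprc, while Csf1r, the macrophage colony-stimulating factor receptor, was lowest there (8.31 CPM against 22.5 to 37.7). Neutrophil sums at day 1 were 46.0, 22.8 and 30.1 CPM in replicates 1, 2 and 3, and Mlkl, like the neutrophil sum, was highest in replicate 1. PBS day 1 replicate 2, with a neutrophil sum of 27.8 CPM, had 18.5 CPM of Mlkl and 2.04 CPM of Il1b. Csf3r and Cxcr2, the 2 markers that rose, were at most 0.285 and 0.110 CPM in any steady-state library. At day 1 they were at least 4.41 and 0.604 CPM, so neutrophil sums of like size did not hold these markers in like amounts. The part of these cells in the Il1b and Mlkl counts was not tested.

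**Figure D2:**
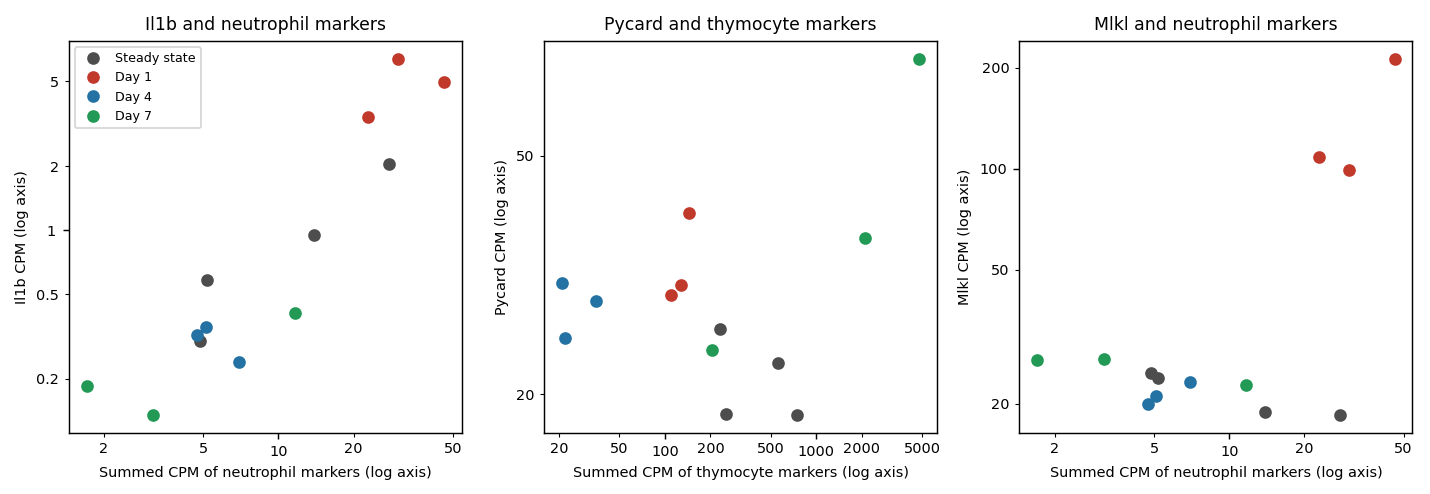
Il1b and Mlkl against the summed neutrophil markers, and Pycard against the summed thymocyte markers, in CPM on log axes with 1 point per library, coloured by group. Il1b is highest where the neutrophil sum is 22.8 to 46.0 CPM and Pycard in the library with a thymocyte sum of 4780 CPM. That library, day 7 replicate 2, also has the highest macrophage and dendritic cell sums of all libraries (782 and 16.4 CPM). Mlkl is highest in the 3 day 1 libraries, with 1 steady-state library of a neutrophil sum of 27.8 CPM at 18.5 CPM of Mlkl. Of the markers in this sum, Csf3r and Cxcr2 were at most 0.285 and 0.110 CPM at steady state.

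At day 4 none of the 10 genes passed the test against steady state, where 0.29% of all genes did, and at day 7 none passed, where 0.005% of all genes did. At an unadjusted p under 0.05 there were 1 and 2 members, and DESeq2 called 0 and 2 (Pycard and Il1b at day 7). The members' median log2 fold change was 0.12 at day 4 and 0.18 at day 7, beside -0.13 and 0.00 over all genes. No member's libraries were separated from the 4 steady-state libraries at either time, where those of 14.7% and 7.49% of all genes were. Mlkl was within 0.01 of steady state on the log2 scale at day 4 (95% interval -0.52 to 0.51). The largest differences were in the least expressed genes, with Il1b at -1.68 and Nlrp3 at -1.97 at day 4 and at -1.98 and -1.99 at day 7.

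The return was measured directly against day 1, which gives comparisons that share the same 3 day 1 libraries as the one above. From day 1 to day 4, 2 of 10 members fell and none rose, where 1.43% of all genes were called and 1.07% as lower. Mlkl fell by 2.71 on the log2 scale (SE 0.536, edgeR adjusted p = 0.000511) and Il1b by 4.01 (SE 0.994, edgeR adjusted p = 0.00994). Ripk3 differed by -1.53 without passing (edgeR adjusted p = 0.0570). The Il1b call was lost without day 4 replicate 2 (adjusted p = 0.0674) or day 4 replicate 3 (adjusted p = 0.0820) and with the tag families as a covariate (adjusted p = 0.07125). In 7 of 10 members, Nlrp3 with its few counts among them, the libraries did not overlap in CPM, all of them lower. Over all genes this held for 26.3% in either direction and 13.7% as lower.

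From day 1 to day 7, 3 of 10 members fell and none rose, where 8.13% of all genes were called and 4.45% as lower. Mlkl fell by 2.45 (SE 0.504, edgeR adjusted p = 0.000659), Il1b by 4.31 (SE 1.03, edgeR adjusted p = 0.00435) and Casp4 by 1.40 (SE 0.410, edgeR adjusted p = 0.0185) on the log2 scale. The Casp4 call was lost without day 1 replicate 1 (adjusted p = 0.0644), day 7 replicate 2 (adjusted p = 0.0816) or day 7 replicate 3 (adjusted p = 0.0725), with only the 2 groups compared (adjusted p = 0.0725) and with the replicate block (adjusted p = 0.0940). In 7 of 10 members, again with Nlrp3, the libraries were separated in CPM, all of them lower. Over all genes this held for 27.5% in either direction and 14.8% as lower. The members' medians were -0.81 at day 4 and -0.90 at day 7 against day 1, beside -0.10 and 0.05 over all genes.

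**Figure D3:**
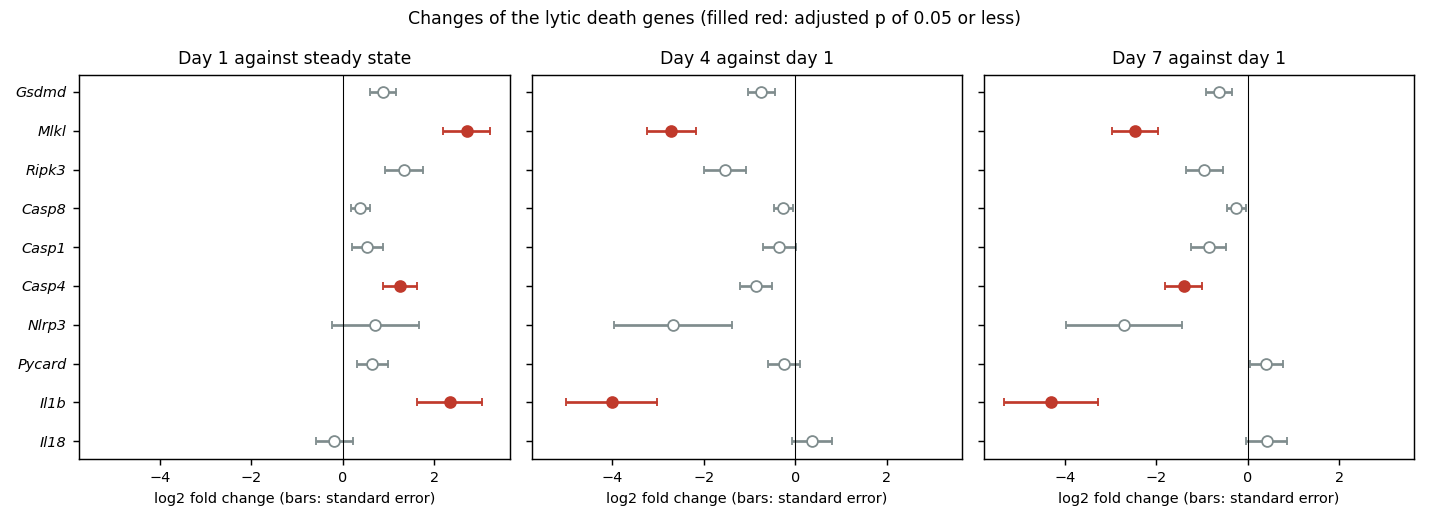
Log2 fold changes of the 10 lytic death genes with their standard errors, for day 1 against steady state and for day 4 and day 7 against day 1. Filled red points passed edgeR's test: Mlkl and Il1b in all 3 comparisons and Casp4 at day 1 against steady state and day 7 against day 1.

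Levels between genes were compared per length, as RPKM (CPM per kilobase of exon). At steady state Gsdmd was highest at 37.5 ± 3.27 RPKM (SD, n = 4), followed by Casp8 at 20.5 ± 1.79. Casp1, Il18, Ripk3 and Mlkl came next at 14.96, 14.2, 10.3 and 9.33 RPKM, and each overlapped its neighbour in this order. Pycard at 5.61 and Casp4 at 4.39 RPKM were below them, and Il1b at 0.507 and Nlrp3 at 0.0432 RPKM were far below all others. The exonic lengths used count every annotated exon base and were 3800 for Pycard, 3710 for Casp4 and 2303 for Mlkl. In CPM, Pycard (21.3) and Mlkl (21.5) were level at steady state, so their order per length rests on these annotated lengths. At day 1 Mlkl moved from the sixth place to the second, at 60.9 ± 27.5 RPKM (SD, n = 3) beside 68.8 ± 26.1 for Gsdmd, whose libraries it overlapped. By day 4 it had returned to 9.28 RPKM, overlapping Ripk3 at 8.97, and at day 7 it was at 11.1 RPKM. Gsdmd and Casp8 led the order at steady state, day 4 and day 7, and Il1b and Nlrp3 closed it in all 4 groups.

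**Figure D4:**
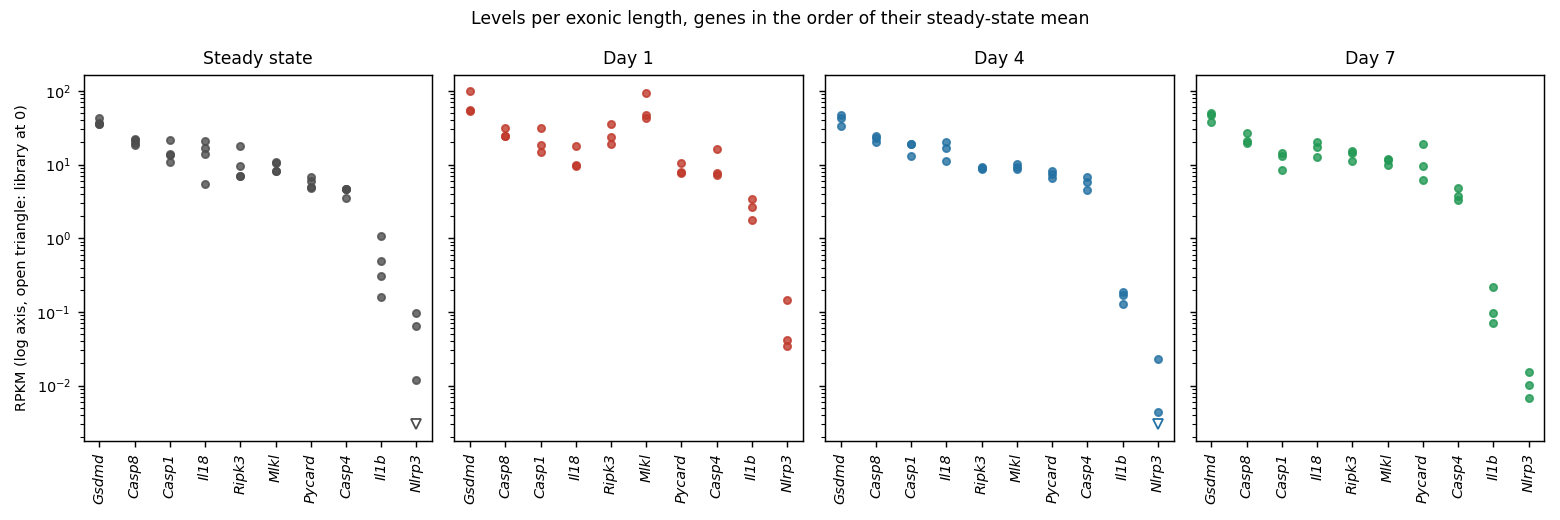
RPKM of the 10 genes on a log axis, with 1 point per library and 1 panel per group, and the genes in the order of their steady-state mean. Mlkl moves from about 9.33 to 60.9 RPKM at day 1 and returns, while Nlrp3 stays below 0.15 RPKM in every library.

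A further 64 genes of the surrounding pathways were taken from lists, and 63 could be tested. At day 1, 10 of the 63 rose and none fell against steady state, where 2.35% of all genes were called. From day 1, 10 fell by day 4 and 18 fell by day 7, where 1.07% and 4.45% of all genes were called lower. None passed against steady state at day 4 or day 7 in edgeR, with 7 and 10 at an unadjusted p under 0.05 and 0 and 8 in DESeq2.

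The GTPase list of the noncanonical inflammasome, made of guanylate-binding and immunity-related GTPases, rose in 7 of 7 at day 1 (median log2 fold change 2.28). It fell in 7 of 7 to day 4 and to day 7. The list assigns its genes no direction of effect on caspase-11. Irgb10 measured 9.63 to 17.98 CPM at steady state and 345, 138 and 160 CPM at day 1, a log2 fold change of 4.16 (SE 0.740, edgeR adjusted p = 6.28e-05). Gbp3 rose by 2.76 on the log2 scale (SE 0.528, edgeR adjusted p = 0.000137). These genes have close paralogs, so reads shared between copies make each value uncertain.

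Among 21 inputs and brakes of the necrosome, 2 rose at day 1 and none fell. Zbp1, the sensor of Z-form nucleic acids that engages RIPK3, measured 33.3, 41.4, 33.0 and 35.3 CPM at steady state and 686, 374 and 304 CPM at day 1. No day 1 library was near the others, and the rise was 3.67 on the log2 scale (SE 0.650, edgeR adjusted p = 6.28e-05). Tlr3, the endosomal receptor for double-stranded RNA that can reach RIPK3 through the adaptor TRIF, rose by 2.06 on the log2 scale (SE 0.461, edgeR adjusted p = 0.00167). Both fell from day 1 to day 4 (Zbp1 by 3.25, edgeR adjusted p = 0.000389, and Tlr3 by 1.80, edgeR adjusted p = 0.0119) and to day 7. By day 7 Tnfsf10, which encodes the death ligand TRAIL, and its receptor gene Tnfrsf10b had also fallen from day 1 (by 1.46 and 1.58, edgeR adjusted p = 0.0411 and 0.0130).

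The cytokine antagonists set the cytokines in context. Il18bp, which encodes the secreted protein that neutralises IL-18, measured 17.4, 20.7, 21.3 and 18.7 CPM at steady state and 186, 92.1 and 84.0 CPM at day 1. It rose by 2.63 on the log2 scale (SE 0.513, edgeR adjusted p = 0.000180), the only call at day 1 in the 8 genes of the interleukin 1 and 18 axis, while Il18 itself did not pass. Per length, the ratio of Il18bp to Il18 was 0.299 to 1.06 in the steady-state libraries, 3.44, 3.10 and 2.90 at day 1, 0.507 to 0.751 at day 4 and 0.381 to 0.496 at day 7. The day 1 ratios thus lay above those of all other libraries. Il1rn, which encodes the IL-1 receptor antagonist, was at 24.6 ± 20.2 (SD, n = 4) at steady state and 61.7 ± 19.0 CPM (SD, n = 3) at day 1, which did not pass, and it fell by 3.58 from day 1 to day 7 (SE 0.883, edgeR adjusted p = 0.00588). Il1rn exceeded Il1b per length in every library, by ratios of 3.38 to 5.54 at day 1, 6.14 to 10.5 at steady state, 23.0 to 53.1 at day 4 and 5.39 to 10.03 at day 7. The day 4 ratios were above those of all other libraries, and the day 1 and day 7 ratios overlapped.

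**Figure D5:**
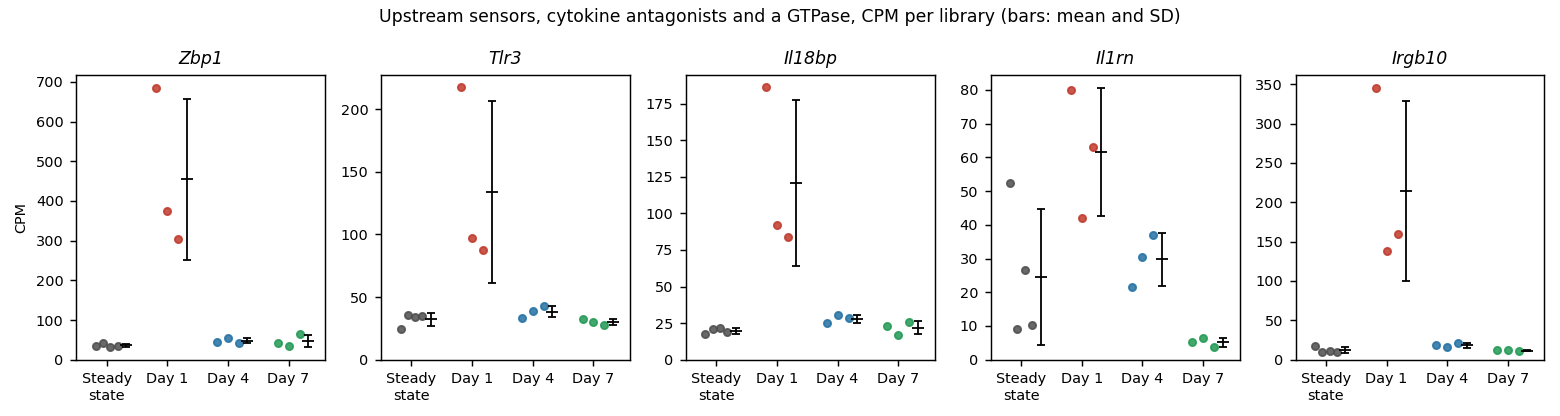
CPM per library of Zbp1, Tlr3, Il18bp, Il1rn and Irgb10 at steady state and at day 1, day 4 and day 7 after TBI, on linear axes from 0, with the group mean and SD as bars. The day 1 libraries of Zbp1 (304 to 686 CPM), Il18bp (84.0 to 186 CPM), Tlr3 and Irgb10 lie above all others, while Il1rn at day 1 overlaps steady state.

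The remaining lists did not pass at day 1, where 2.35% of all genes were called in either direction. For lists this short, no call is near that share. None of 12 inflammasome sensors and cofactors was called (3 at an unadjusted p under 0.05 and 2 in DESeq2), and of these Naip2 and Naip5, sensors of bacterial proteins with close paralogs, fell from day 1 to day 7 (by 1.49 and 1.32, edgeR adjusted p = 0.0412 and 0.0479). None of 9 tested gasdermins and membrane rupture genes was called at day 1 by edgeR, at an unadjusted p under 0.05, or by DESeq2, and Ninj1, which drives the final rupture, measured 54.3 ± 15.8 (SD, n = 4) and 55.3 ± 18.1 CPM (SD, n = 3). The keratinocyte gasdermins Gsdma, Gsdma2 and Gsdma3, close paralogs of each other, fell from day 1 to day 7 (Gsdma by 2.82, edgeR adjusted p = 0.0204). At day 7 Gsdma2 had 1 to 3 counts in a library and Gsdma3 4 to 11, at or near the floor of 3 counts. The TEC marker sum was 1320 to 2233 CPM at day 1 and 557 to 1034 CPM at day 7 (median log2 fold change -1.56, with none of 7 markers called), and its part in the gasdermin values was not tested. The apoptotic caspases, the proteases of non-lytic death, were not called in 6 of 6 genes in any of the 5 comparisons by edgeR, with 2 at an unadjusted p under 0.05 and 1 in DESeq2 at day 1. Over all genes the share called in these comparisons was 0.005% to 8.13%.

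Across the 13 libraries, the genes whose log2(CPM + 0.5) was most like that of Mlkl were Herc6, Isg15 and Trim30a (Pearson r of 0.990, 0.989 and 0.989). Those of Casp4 were Plin2, Ly6c1 and Cptp (r of 0.981, 0.968 and 0.966) and those of Ripk3 were Fxyd5, AI506816 and Ldha (0.979, 0.968 and 0.968). Il1b was most like Ccl4, Trim30b and Acod1 (0.968, 0.967 and 0.961), Gsdmd like Psme1, Procr and Sult6b1 (0.968, 0.962 and 0.959) and Il18 like Nkain4, Cldn10 and Csrp2 (0.962, 0.951 and 0.938). Pycard was most like Rbks, Sars2 and H2-T-ps, Casp1 like Cib1, Slc7a7 and Chn1, Casp8 like Stard3, Vta1 and Grpel1, and Nlrp3 like Ccdc38, Padi6 and Sbp, with r from 0.927 to 0.968. Between members, r was 0.873 for Mlkl and Ripk3, 0.862 for Gsdmd and Mlkl and -0.50 for Il1b and Il18. These values describe 13 libraries that share 4 groups and their depth, and a gene chosen as the most alike among many has a high r by that choice.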

How the data were processed

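Bulk RNA-seq was analysed for 13 libraries. Per the submitters' processing notes, the authors trimmed reads with Trimmomatic 0.38, aligned them with STAR 2.7.0e to GRCm38.p5 (mm10) and counted them with featureCounts 1.6.3, and the deposited values are whole-number counts per gene without normalization. The 4 PBS columns carry no replicate numbers of the labels and were used as a group. Symbols came from a GENCODE annotation of GRCm38 (53274 identifiers matched), and Irgb10 was read as Gm12250. Total counts were 15721866 to 52056896 per library, which limits genes at 3 counts or fewer. Intervals cover the spread between libraries only.

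All 13 libraries entered 1 fit in edgeR 4.0.16 (R 4.3.3) with TMM normalization, a filter of at least 10 counts by group (19984 genes, all 10 members included) and the quasi-likelihood test, with Benjamini-Hochberg adjustment and a threshold of 0.05. SEs were derived from the p-value. DESeq2 1.42.0, other filters, RLE normalization, tag families as a covariate, a replicate block, fits of the compared groups only and leaving out each library were alternatives. The procedure was tested on simulated data. The members and lists were chosen with earlier results of these data known. All members were named in every comparison. Pathway genes that passed were counted, with values for those of the largest folds at a mean of at least 1 CPM, and others with values were chosen after their values were seen. Marker lists were given as ranges, with the 3 genes most like each member. Steady-state levels were examined for outlying libraries.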

Additional observations from a re-analysis of the deposited data

Results flagged for a closer look

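Casp4 at steady state measured 13.1 CPM in PBS day 7 replicate 1, while the other libraries were at 17.2 to 17.5 CPM. The gap to its nearest neighbour was 0.936 of the range of the 4 libraries, past the 95% critical value of Dixon's test. All 10 members were examined in this group, where 0.5 such results are expected by chance, and 1 of the 10 was likewise set apart with RLE normalization, an alternative added after the data were seen. Without this library the day 1 rise of Casp4 was 1.23 on the log2 scale (edgeR adjusted p = 0.1145).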

How the results depend on the processing

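Mlkl kept its direction and stayed past the threshold in all 13 alternatives of day 1 against steady state, day 4 against day 1 and day 7 against day 1, and Il1b did so in all 12 of day 7 against day 1. The number of members called at day 1 was 3 and became 5 with the tag families as a covariate, 5 in DESeq2, 1 with only the 2 groups compared and 1 to 4 without 1 library. At day 7 against steady state it was 0, with 2 in DESeq2 and 0 to 1 without 1 library. At day 4 against day 1 it was 2, and 1 to 2 without 1 library. Pathway genes called at day 1 were 16 in DESeq2 (10 in edgeR). At day 7 against steady state they were 3 with no filter, 8 in DESeq2 and 0 to 2 without 1 library. At day 4 against day 1 they were 3 with the replicate block, fitted without the steady-state libraries, and 10 in the main fit. At day 7 against day 1 they were 10 to 16 without 1 library (18 with all). The causes were not tested.

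The replicate numbers did not pair the libraries (mean correlation of same-numbered deviations -0.669, -0.141 and 0.0537). The block was fitted to the irradiated libraries only, so its counts also differ by the loss of the 4 steady-state libraries. Over all genes, against day 1, it gave 56 at day 4 and 640 at day 7, where the main fit gave 285 and 1625. Casp4 at day 7 against day 1 had an adjusted p of 0.0940 with the block.

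Signs reversed only among differences that did not pass. Mlkl at day 4 against steady state was 0.0678 with RLE, 0.0687 in DESeq2, 0.0945 with the 2 groups only and -0.0702 to 0.15 without 1 library. With the tag families as a covariate Casp1 at day 4 was -0.00196, and Il18 was -0.10 at day 7 against steady state and -0.0373 against day 1. Without 1 library, Il18 was -0.54 to 0.0508 at day 1, -0.0194 to 0.48 at day 4 and -0.0410 to 0.47 at day 7 against steady state. Nlrp3 was -0.24 to 1.03 at day 1, Ripk3 -0.27 to 0.20 at day 4, Casp4 -0.31 to 0.00179 at day 7, Casp1 -0.55 to 0.0259 at day 4 against day 1 and Pycard -0.17 to 0.71 at day 7 against day 1. Ripk3 at day 4 was 9.23 RPKM with RLE and 8.97 with TMM. DESeq2 gave Nlrp3 no adjusted p in 2 comparisons, and at least 10 counts in every library removed Il1b and Nlrp3.

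Counts over all genes varied most: 228 to 1399 at day 1, 19 to 645 at day 4 and 0 to 1081 at day 7 against steady state, and 56 to 960 and 472 to 2940 against day 1.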

Other observations

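Ripk1, the kinase that recruits RIPK3, and Nek7, the NLRP3 cofactor, passed no comparison but had libraries far from the rest of their group, chosen here after their values were seen. Ripk1 measured 12.2 CPM in day 1 replicate 1 and 95.7 and 82.7 CPM in the other day 1 libraries, and 16.5 and 17.2 CPM in day 4 replicates 2 and 3 against 75.4 CPM in replicate 1. The steady-state libraries measured 71.3 to 83.7 CPM and those of day 7 35.3, 72.6 and 75.9 CPM. Nek7 was lowest in the same libraries, at 50.4 CPM in day 1 replicate 1 and 71.1 and 84.5 CPM in day 4 replicates 2 and 3, beside 119 to 236 CPM in the other 10. These were also the only libraries of their groups with a tag beginning kk or k3. Every day 7 library, PBS day 4 replicate 2 and PBS day 7 replicate 2 had such tags too. Other genes of the necrosome list ranged widely in the same groups, as Ppm1b did (2.97 to 38.8 CPM at day 1 and 7.18 to 34.4 CPM at day 4). Any part of the tags in these values was not tested.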
